A study of Ipomoea batatas with 12 samples.

Results

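The count table of this sweetpotato (Ipomoea batatas) study held 225111 gene identifiers. Most are numbered: they carry 1 of 15 numbers and 1 of 6 letters, which together make 90 blocks and 217050 genes. The other 8061 identifiers begin with Ibat.Brg_v3.S, followed by a running number alone, and are called unnumbered here. The genes described are the 1920 unnumbered ones with at least 10 counts summed over the 12 libraries, called members, and they were set against the 115785 numbered genes that reached the same minimum. Of the unnumbered genes left out, 6141 in all, 4804 had no count in any library. At the threshold itself, 53 genes had exactly 10 counts and 56 had 9.

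Cultivated sweetpotato is a polyploid in which each chromosome exists in several related versions, so an assembly that keeps these versions apart holds many near-identical copies of a gene. Sequence that cannot be joined to a chromosome is usually kept aside, and it is known for short or partial gene models, repeats and extra copies of genes placed elsewhere. In the storage root, the flesh is parenchyma that fills with starch, and the skin is a corky outer layer that seals the root. What the letter S stands for is not stated in the labels or the table, so the label of genes outside the numbered blocks was taken from the form of the identifiers alone. None of the unnumbered identifiers could be paired with a gene name, so members are called by the last part of the identifier (S050160 for Ibat.Brg_v3.S050160), and nothing can be said of what each encodes or of marker genes for skin and flesh.

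The 4 groups were flesh and skin of storage roots from line M1-125 (WT) and from its natural mutant (MT), all taken 120 days after planting in the field under what the labels call normal treatment. Each group had 3 libraries, which the design text calls biological replicates without saying whether they came from separate plants, so a p-value here reflects only how far these samples spread. The labels do not name the gene changed in the mutant, so no targeted gene could be checked. Poly(A)-enriched RNA was sequenced, and library totals spanned 8507461 to 20276417 counts, with all 6 skin libraries below all 6 flesh libraries.

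Unnumbered genes were less often expressed than numbered ones. At least 10 counts were reached by 23.8% of them (1920 of 8061, 95% Wilson interval 22.9 to 24.8%, counting error only), against 53.3% of numbered genes (53.1 to 53.6%). The gap was there at each other minimum looked at. At least 1 count was found in 40.4% of unnumbered and 68.2% of numbered genes, and at least 50 counts in 13.7% and 40.0%. After every library was scaled down to the depth of the shallowest, 20.1% and 48.8% reached 10 counts.

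Unnumbered genes were also shorter, with a median length in the table of 726 bases against 1173. Length moved with expression in both sets, yet within each length class the unnumbered share was the lower one. Below 300 bases, 11.8% of unnumbered and 25.7% of numbered genes were expressed. From 1200 to 2399 bases the shares were 34.9% and 67.9%, and at 2400 bases or more they were 55.3% and 84.1%. Lengths that are multiples of 3 made up 92.9% of the unnumbered models and 70.7% of the numbered ones. The structure of the models is not given in the sources used here, and the part that this difference in lengths plays in the expressed share was not tested.

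**Figure D1:**
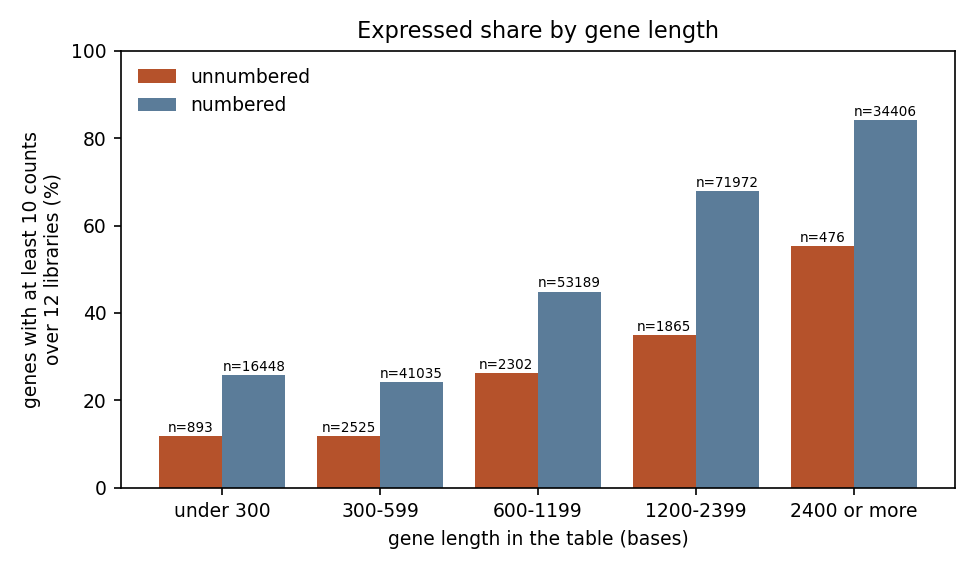
Share of genes with at least 10 counts over the 12 libraries (vertical axis, percent) in 5 classes of gene length (horizontal axis, bases), for unnumbered and numbered genes, with the number of genes above each bar. In every class the unnumbered bar is lower, from 11.8% against 25.7% in the shortest to 55.3% against 84.1% in the longest.

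Members made up a small share of the total counts of each library. They held 0.463, 0.491 and 0.481% of the counts in the 3 WT flesh libraries and 0.455, 0.446 and 0.461% in MT flesh. In skin they held 0.504, 0.526 and 0.452% in WT and 0.470, 0.448 and 0.458% in MT. As shares of library totals, the groups overlapped except for WT flesh and MT flesh. There each WT library was above each MT library by a small margin (means 0.478 ± 0.0143% and 0.454 ± 0.00729%, SD, n = 3). This pattern depended on the scaling, as the sums in the next paragraph show. WT skin had the widest spread (0.494 ± 0.0381%, SD, n = 3), and its replicate 3 lay at the level of the MT skin libraries (0.459 ± 0.0113%, SD, n = 3).

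A few genes carried much of that share. The 10 most abundant members held between 19.4 and 26.0% of all member counts, with the higher values in flesh. Only 83 members (4.32%) had a mean level of at least 10 CPM per kb, where CPM is counts per 1e6 counts after TMM scaling and the kilobases are those of the table, and 10.8% of expressed numbered genes reached it. The median member level was 0.253 ± 0.00922 CPM per kb in WT flesh, 0.264 ± 0.00461 in MT flesh, 0.328 ± 0.0817 in WT skin and 0.249 ± 0.0160 in skin of MT (SD, n = 3). Medians of the expressed numbered genes were 0.667, 0.679, 0.776 and 0.705 CPM per kb in the same order, so members lay lower in every group. Summed over all members, the CPM was 4026, 4315 and 4221 in WT flesh and 4278, 4175 and 4338 in MT flesh. It was 5513, 5831 and 5039 in WT skin and 5397, 5106 and 5160 in MT skin. With TMM scaling every skin library was thus above every flesh library, and the lines overlapped in flesh and in skin. WT skin replicate 2 stood out with a member median of 0.416 CPM per kb, against 0.313 and 0.255 in the other WT skin libraries. That library also had the greatest depth among skin libraries, with 15065079 counts.

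**Figure D2:**
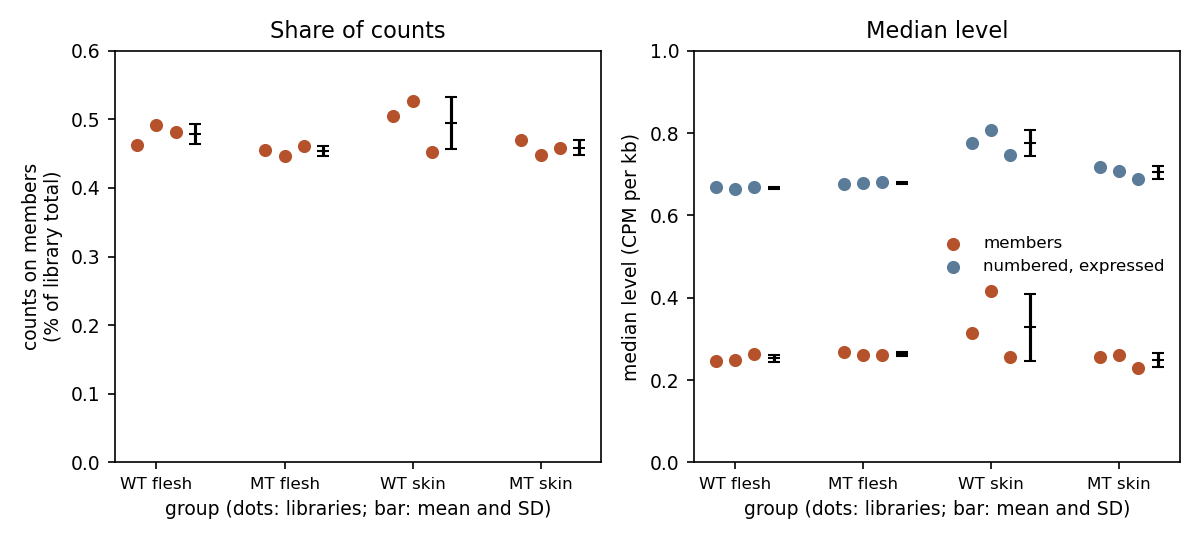
Left, percent of each library's counts on the 1920 members; right, median level in CPM per kb over members and over expressed numbered genes; dots are libraries and bars give the group mean and SD of 3. Shares stay between 0.446 and 0.526%, and member medians lie below those of numbered genes in all 12 libraries.

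S044010, of 1173 bases, had the highest mean level among members. Its CPM was 122.8, 122.4 and 135 in WT flesh, 139, 142 and 142 in MT flesh, 263, 299 and 259 in WT skin, and 289, 293 and 295 in MT skin. Every skin library was above every flesh library, and replicates lay close together. The rise in skin was 2.16-fold in WT (log2 fold change 1.11 ± 0.06 SE, quasi-likelihood test of edgeR, Benjamini-Hochberg adjusted p = 2.2e-09) and 2.07-fold in MT (1.05 ± 0.06, adjusted p = 4.4e-09 by the same edgeR test). Neither genotype comparison passed for this gene (edgeR adjusted p = 0.44 in skin and 0.25 in flesh).

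S018930, whose model is only 297 bases long, came next in level per kb and ran the other way. Its CPM was 41.2, 47.6 and 41.0 in WT flesh, 64.8, 57.5 and 70.8 in MT flesh, 23.5, 29.9 and 27.2 in WT skin, and 23.9, 25.6 and 23.8 in MT skin. All MT flesh libraries were above all WT flesh libraries, and all flesh libraries were above all skin libraries. It rose 1.49-fold in MT flesh (log2 fold change 0.57 ± 0.11 SE, edgeR adjusted p = 0.0043) and was unresolved between genotypes in skin (edgeR adjusted p = 0.54). The third gene by level, S073190, was a flesh gene and is described with the tissue comparison.

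Counts of members were more often concentrated in a single library. At least 50% of all counts came from 1 library for 282 members (14.7%), against 6.27% of expressed numbered genes. This was more common at low totals, and the members' share was the higher one within each class of total. It was 24.1% against 16.7% at 10 to 49 counts, 11.6% against 6.38% at 50 to 199, 5.40% against 2.11% at 200 to 999, and 0.585% against 0.134% at 1000 or more. Counts in all 12 libraries were present for 615 members (32.0%) and for 53.4% of expressed numbered genes. Within classes of total these shares lay closer together. They were 0.367% against 0.877% at 10 to 49 counts, 26.4% against 31.8% at 50 to 199, 78.7% against 81.6% at 200 to 999, and 95.3% against 95.8% at 1000 or more. The libraries that held at least 50% of a member's counts were spread over the groups, from 7 members in MT skin replicate 3 to 37 in WT skin replicate 2, the deepest skin library.

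S017280, of 513 bases, is the extreme case and was singled out after its values were seen. It had 383 of its 388 counts in WT flesh replicate 2, 2 in WT flesh replicate 1, none in WT flesh replicate 3 and 3 over the WT skin libraries. All 6 MT libraries had no count, and it is the only member with at least 100 counts of which this is true. It was not among the tested genes, and 1 library decides its difference between the lines. S090560, of 762 bases, had the widest spread among members whose mean log2 CPM was 4 or more. Its CPM was 42.1, 58.5 and 71.9 in WT flesh, 14.1, 36.2 and 8.59 in MT flesh, 45.8, 9.71 and 38.5 in WT skin, and 82.4, 9.40 and 16.1 in MT skin. Replicates of 1 group lay far apart, above all in MT skin, and only the flesh groups did not overlap. None of its comparisons passed the test (lowest edgeR adjusted p = 0.30).

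Some members had no count in a whole line or tissue, most of them with low totals. No count in the 6 flesh libraries was found for 68 members (3.54%, against 3.18% of expressed numbered genes) and none in the 6 skin libraries for 119 (6.20% against 4.46%). No count in WT was found for 19 members (0.990% against 0.292%) and none in MT for 41 (2.14% against 0.680%). Medians of the total count were 23, 21, 15 and 14 in these 4 sets, so most could not be told from weak expression at this depth. Among the 813 members with at least 100 counts, 9 had none in flesh (1.11%, against 1.47% of numbered genes with as many counts) and 11 none in skin (1.35% against 1.28%), and 0 had none in WT.

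Differences between groups were tested on the 926 members that passed a filter on low counts, which is 11.5% of unnumbered genes against 36.6% of numbered ones, and 994 members were not tested. The filter keeps a gene that is high in 1 group only, and 110 of the 926 reached a mean of 10 counts in a single group, so counts over the tested members do not describe all members. Tested members were lower in level than tested numbered genes (median log2 CPM 0.31 against 1.36). Their replicates also varied more, with a median biological coefficient of variation, the spread between replicates beyond counting, of 0.436 against 0.306. That difference held in every level class, for example 0.354 against 0.298 at a log2 CPM of 1 to 2 and 0.126 against 0.103 at 4 or more.

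Skin and flesh differed for many members, though for a smaller share than in the whole table. In WT, 367 of 926 tested members passed (39.6%), where 50.4% of all genes tested did, with 231 higher and 136 lower in skin. In MT, 376 passed (40.6%), where 50.7% of all genes tested did, with 218 higher and 158 lower. The median log2 fold change of tested members was 0.22 in WT and 0.06 in MT, beside -0.02 and -0.06 for all genes tested. In bulk tissue, fewer cells of a type and less RNA per cell cannot be told apart. Of all genes tested, 26.3% were called higher and 24.1% lower in WT skin, and 25.5% and 25.2% in MT skin. The split between higher and lower depended on the scaling, in members and in all genes tested alike. With TMM, 62.9% of called members were higher in WT skin, beside 52.2% of all genes called, and 58.0% beside 50.4% in MT. The percentages with library totals were 49.5 beside 39.5 in WT and 48.0 beside 39.8 in MT, so members stayed above all genes called. With library totals in place of TMM the split was 185 higher and 189 lower in WT, out of 54.2% of all genes called (21.4% higher, 32.8% lower), and 189 and 205 in MT, out of 53.3% (21.2% higher, 32.1% lower), and all genes tested then had medians of -0.36 in WT and -0.34 in MT, beside -0.12 and -0.21 for members. The same direction in both lines was found for 272 members (29.4%, where 39.7% of all genes tested had it), 176 of them higher and 96 lower in skin; both lines were compared with their own flesh libraries.

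S059950 and S063820 had the largest rises in skin among members that met the naming rule. S059950, of 2401 bases, had no count in any of the 6 flesh libraries, and its CPM was 71.8, 86.8 and 68.9 in WT skin and 38.5, 50.5 and 37.9 in MT skin. Against a floor of 3 counts over the flesh group, it was at least 1624-fold higher in WT skin and at least 785-fold higher in MT skin (edgeR adjusted p = 2.7e-10 and 8.5e-10). Within skin the WT libraries were all above the MT libraries, and it fell in MT by 0.84 on the log2 scale (SE 0.14, edgeR adjusted p = 0.0067). S063820, of 981 bases, likewise had no count in flesh. Its CPM was 71.7, 67.5 and 64.4 in WT skin and 73.5, 69.0 and 70.1 in MT skin, where the lines overlapped. It was at least 1453-fold higher in WT skin and at least 1315-fold higher in MT skin (edgeR adjusted p = 1.2e-11 and 1.5e-11).

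S073190, of 1761 bases, was the reverse. Its CPM was 204, 274 and 247 in WT flesh and 306, 343 and 299 in MT flesh, against 1.94, 2.57 and 0.579 in WT skin and 2.89, 5.55 and 6.48 in MT skin. It was 142-fold lower in WT skin and 63.5-fold lower in MT skin (edgeR log2 fold changes -7.05 ± 0.27 and -6.01 ± 0.25 SE, adjusted p = 2.4e-11 and 4.9e-11). S050160, of 2879 bases, was also a flesh gene, with 11.3, 9.53 and 9.27 CPM in WT flesh and 10.7, 11.6 and 12.3 in MT flesh. Its skin CPM was 0.863, 1.62 and 0.927 in WT and 0.214, 0 and 0.265 in MT. It was 8.83-fold lower in WT skin and 72.2-fold lower in MT skin (edgeR log2 fold changes -3.09 ± 0.33 and -6.13 ± 0.46 SE, adjusted p = 2.2e-06 and 4.4e-08).

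**Figure D3:**
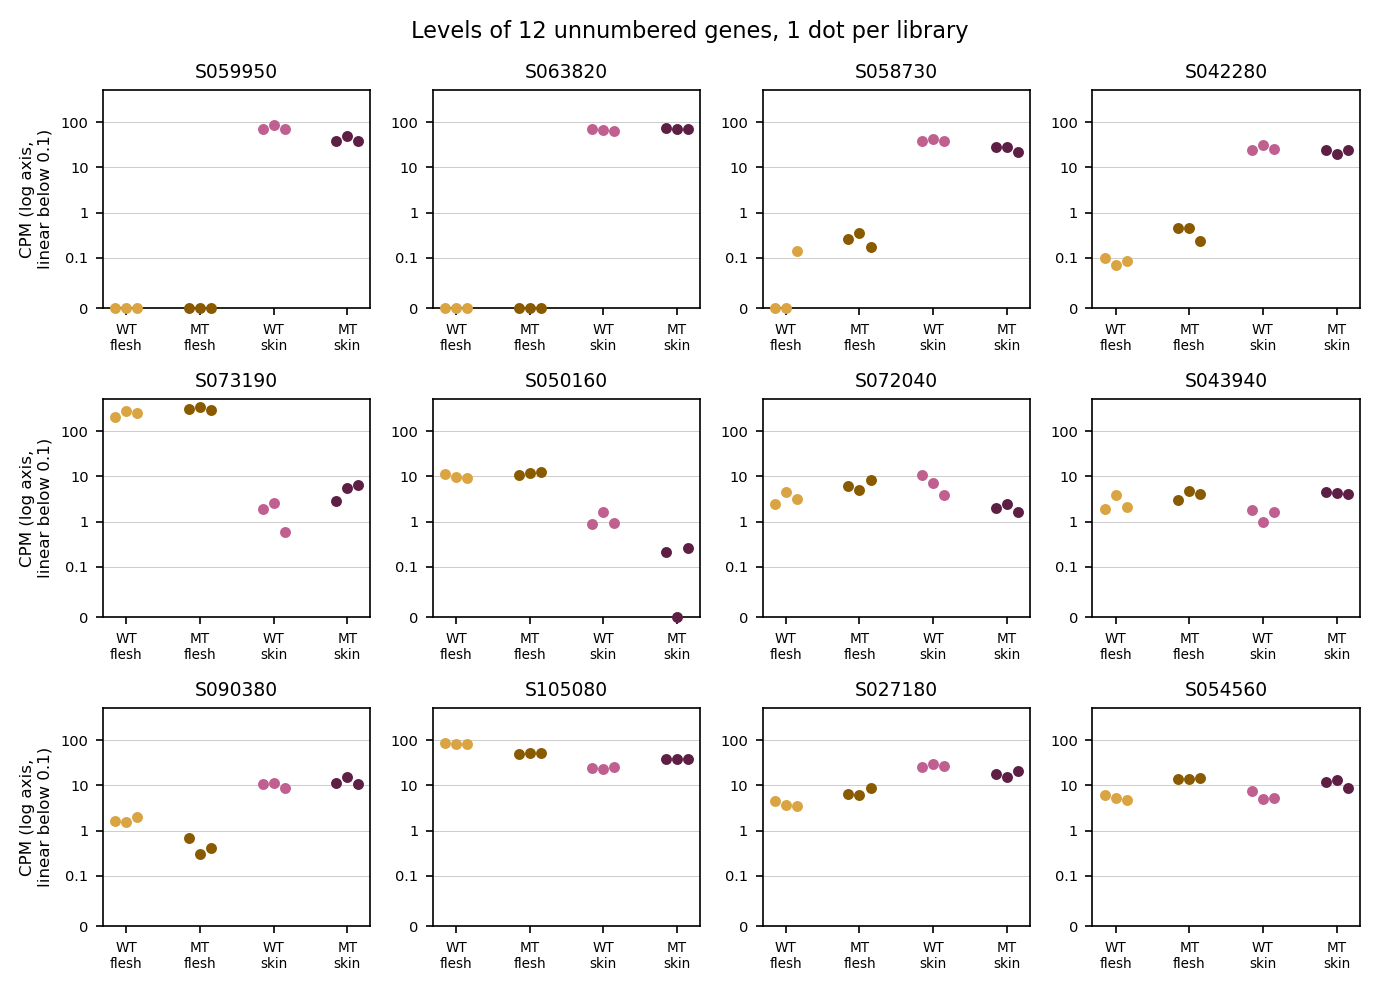
CPM of 12 members (1 panel each, log axis that is linear below 0.1), with 1 dot per library in the 4 groups. S059950 and S063820 lie at 0 in all 6 flesh libraries and between 37.9 and 86.8 CPM in skin, S073190 is above 200 CPM in flesh and below 7 in skin, and S105080 is higher in WT flesh and in MT skin.

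Most tested members with the lowest running numbers, up to S002100, were higher in skin than in flesh. Unnumbered rows that follow each other in the table with running numbers at most 50 apart were taken as 1 stretch, on the assumption that running numbers follow position, since the table gives no coordinates. There were 3483 such stretches, 1539 of them a single identifier. The first, from number 10 to 4070, held 343 identifiers, where the next longest held 28. It contained 43 members, of which 31 were tested, and it was singled out after its values were seen, so its list is described without a test.

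In WT, 25 of the 31 were higher and 2 lower in skin, where 26.3% and 24.1% of all genes tested were, with a median log2 fold change of 2.60. In MT, 27 were higher and 2 lower, where 25.5% and 25.2% of all genes tested were, with a median of 3.70. The 2 lower genes were S002810 and S002850 in both lines. The last member called higher in WT skin was S002100. Of the 31, 28 lay up to that number and 3 after it, a limit set after the values were seen. None of those 3 was called higher in skin: beside the 2 lower genes, S002880 did not pass (edgeR adjusted p = 0.14 in WT and 0.74 in MT). S000140 also had values below 0, at -0.96 in WT and -1.0 in MT on the log2 scale, and did not pass (edgeR adjusted p = 0.38 and 0.35). Summed over the 43 members, the CPM was 18.4, 16.4 and 13.1 in WT flesh and 18.3, 16.8 and 12.7 in MT flesh. It was 79.5, 70.3 and 41.6 in WT skin and 98.5, 125 and 154 in MT skin, so that every skin library was above every flesh library and every MT skin library above every WT skin library. With library totals in place of TMM the skin sums were 37.3 to 72.7 in WT and 85.8 to 137 in MT, in the same order.

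Of the same 31 members, 90.3% had a log2 fold change above 0 for MT against WT in skin, where 48.5% of all genes tested did, with a median of 1.08. The others were S002850 at 0, S002100 at -0.23 and S002880 at -0.96. Singly, only S000080 and S000630 passed (edgeR log2 fold changes 1.404 and 1.612, adjusted p = 0.050 and 0.010, the first just under the threshold of 0.05). In flesh the median over the 31 was 0.06, and none passed with edgeR, with 0 of them at an unadjusted p under 0.05. The interaction median was 1.07, and none passed with edgeR, with 2 at an unadjusted p under 0.05. These members are not independent of each other. Gene lengths recurred among the 43, with 735 bases in 7 members, 216 in 5, 423 in 5 and 252 in 4, and how the authors' counting divided reads among copies that may be near-identical is not given in the sources used here. Without the stretch, 340 of 895 tested members passed for tissue in WT (38.0%, where 50.4% of all genes tested did) and 347 in MT (38.8% against 50.7%), and the medians were 0.15 and 0.00.

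**Figure D4:**
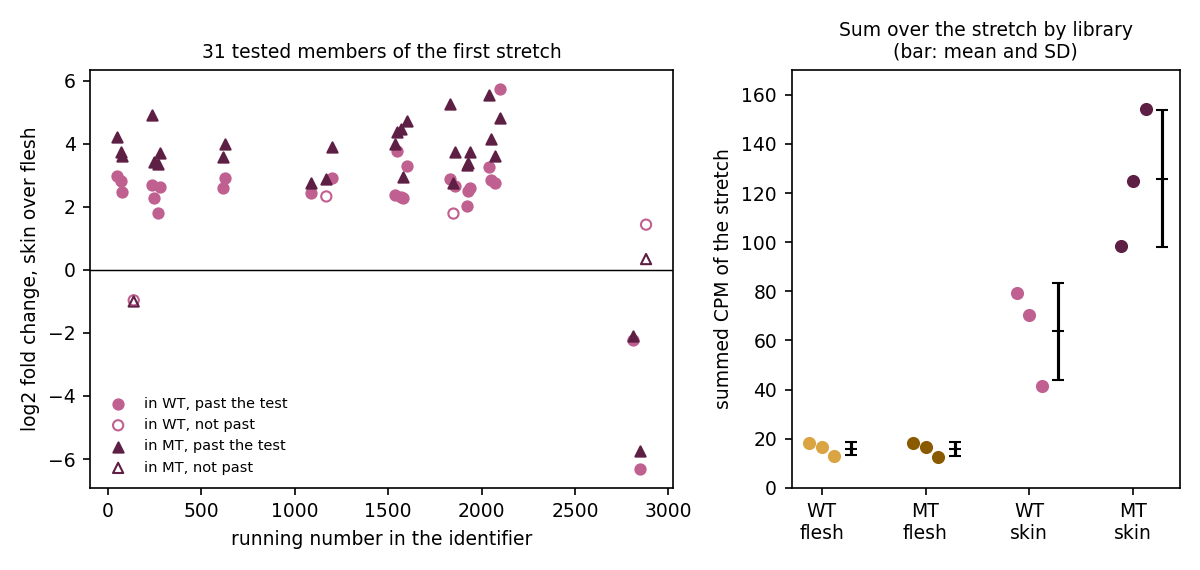
Left, log2 fold change of skin over flesh in WT and MT for the 31 tested members of the first stretch, by running number, filled where the test passed; right, CPM summed over its 43 members in each library, with group mean and SD of 3. Most points lie between 1.8 and 5.7, and the sums rise from about 16 CPM in flesh (means 16.0 and 15.9) to 63.8 in WT skin and 126 in MT skin.

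Neighbours within stretches were also compared over the whole set. Over 279 pairs of tested members that follow each other, the tissue log2 fold changes in WT had a Pearson r of 0.35, and 0.32 over the 259 pairs outside the first stretch. In MT the values were 0.33 and 0.25. For genotype they were 0.20 and 0.13 in skin, and 0.25 and 0.26 in flesh. The pairs share libraries and some share copies, so this is a description across genes. Both genes of 64 pairs passed in WT, 53 with the same direction, and outside the first stretch both passed in 48, 37 with the same direction. Singly, 50.4% of all genes tested passed in WT; the matching count over pairs of numbered genes was not made.

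Genotype differences were fewer. In skin, 37 of 926 tested members passed for MT against WT (4.0%), where 6.85% of all genes tested did, with 18 higher and 19 lower in MT (3.64% and 3.21% of all genes tested) and a median log2 fold change of -0.09. That even split depended on the setting. It was 8 higher and 21 lower, of 1067 members tested, without WT skin replicate 3. With DESeq2 it was 25 and 38 of 926, and with no filter on low counts 35 and 59 of 1920. Of all genes tested, 4.81%, 10.4% and 4.86% were called in these settings, and 51.8%, 55.7% and 50.5% of those called were higher. In flesh, 19 passed (2.05%), where 4.96% of all genes tested did, with 13 higher and 6 lower (3.75% and 1.21% of all genes tested) and a median of 0.00. With library totals the flesh split was 9 higher and 9 lower, where 5.13% of all genes tested were called (3.0% higher and 2.13% lower). It was 5 higher and 7 lower without WT flesh replicate 1, 7 and 10 without WT flesh replicate 3, and 34 and 36 with no filter, where 77.6%, 79.1% and 69.3% of all genes called were higher. With no filter, 4.90% of the 1920 members were called in skin and 3.65% in flesh, beside 6.24% and 4.81% of all genes with at least 10 counts, a narrower gap, and beside 4.86% and 3.74% of all genes with any count. By level, the share of members called in skin was 1.5% below a log2 CPM of 0 and 20.9% at 4 or more, beside 1.95% and 22.4% of numbered genes. At 3 to 4 it was 16.4% (9 of 55) against 9.50%, and at 2 to 3 it was 1.06% (1 of 94) against 5.94%, so members were not lower in every class. Lower levels and wider replicate spread moved with the smaller called share, and their part in it was not tested.

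**Figure D5:**
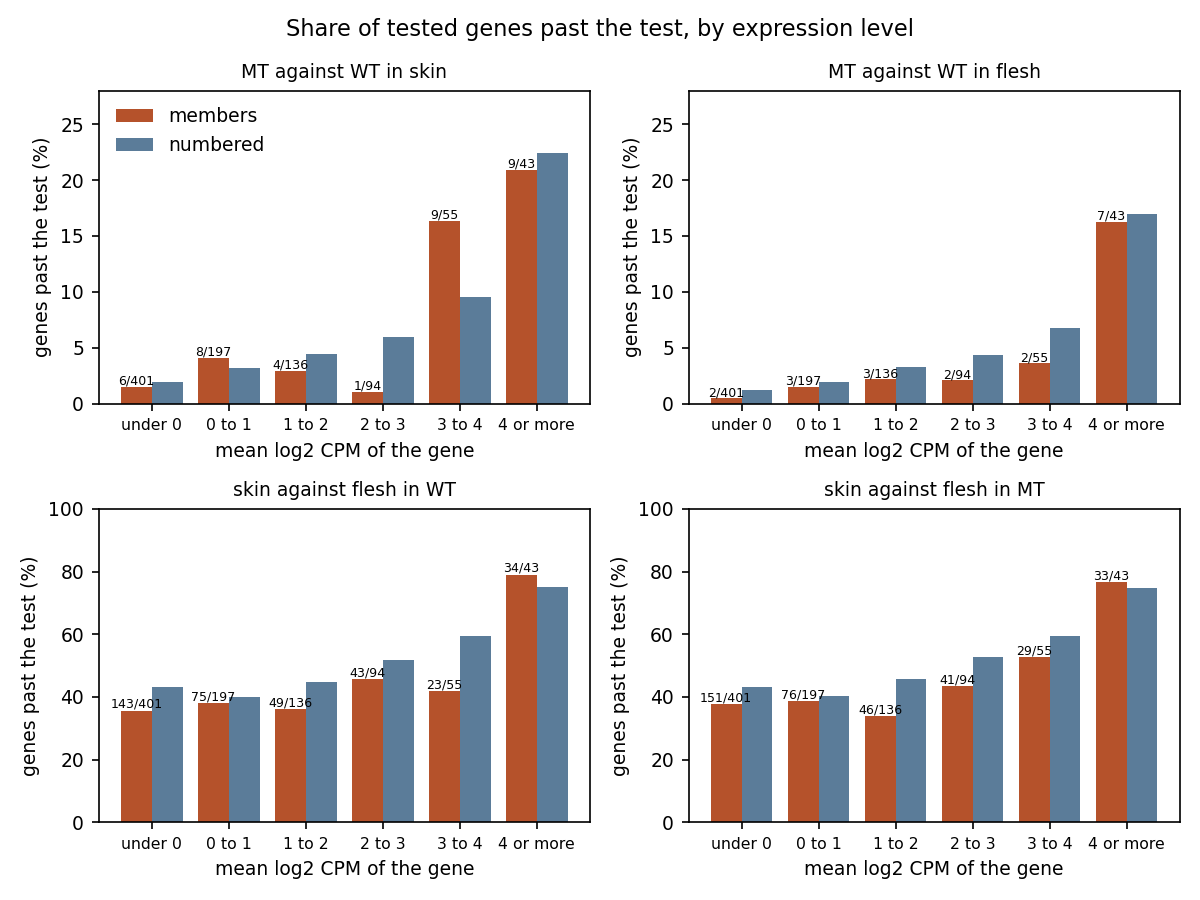
Percent of tested genes past the test (vertical axis) by mean log2 CPM class (horizontal axis) in 4 comparisons, for members and numbered genes, with the number called over the number tested above each member bar. Called shares are highest in the top class in both sets, a log2 CPM of 4 or more, where members reach 20.9% in the skin genotype comparison beside 22.4% of numbered genes.

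In MT skin, S050160 and S072040 showed the strongest falls among members that met the naming rule. S050160 fell in MT skin by 2.84 on the log2 scale (SE 0.55, edgeR adjusted p = 0.0063), which rests on 38 counts over the WT skin libraries and 4 over the MT ones. When only the skin groups were fitted, S050160 did not pass the filter on low counts and was not tested. Its flesh levels, given above, overlapped between the lines (edgeR adjusted p = 0.87). S072040, of 2880 bases, had 10.8, 7.28 and 3.82 CPM in WT skin and 2.04, 2.49 and 1.59 in MT skin. The groups did not overlap, and it was 3.58-fold lower in MT (log2 fold change -1.83 ± 0.40 SE, edgeR adjusted p = 0.012). In flesh it had 2.48, 4.46 and 3.14 CPM in WT and 6.02, 4.87 and 8.23 in MT, higher in each MT library but short of the threshold (edgeR adjusted p = 0.22). The skin call of S072040 was lost without WT skin replicate 1 (edgeR adjusted p = 0.057) or MT skin replicate 3 (0.051).

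The rises in MT skin were smaller. S043940, of 1323 bases, had 1.83, 0.956 and 1.62 CPM in WT skin and 4.50, 4.19 and 3.97 in MT skin, with no overlap. It was 2.87-fold higher (log2 fold change 1.54 ± 0.38 SE, edgeR adjusted p = 0.026). S073190, the flesh gene, rose 2.93-fold in MT skin from its low level there (log2 fold change 1.43 ± 0.36 SE, edgeR adjusted p = 0.029). Its flesh libraries were also all higher in MT, without passing (log2 fold change 0.39 ± 0.17 SE, edgeR adjusted p = 0.32). Neither skin call withstood every left-out library. That of S043940 was lost without WT skin replicate 2 or 3 or MT skin replicate 1 or 2 (edgeR adjusted p = 0.11, 0.059, 0.065 and 0.056). That of S073190 was lost without WT skin replicate 1 or 3 or MT skin replicate 2 or 3 (edgeR adjusted p = 0.072, 0.071, 0.098 and 0.11), and when only the 2 skin groups were fitted (0.13).

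In MT flesh, S090380 and S060720 fell. S090380, of 1401 bases, had 1.67, 1.56 and 2.01 CPM in WT flesh and 0.675, 0.307 and 0.414 in MT flesh. All MT libraries were lower, by 3.75-fold (log2 fold change -1.89 ± 0.32 SE, edgeR adjusted p = 0.0020), and in skin, where it was more abundant at 8.92 to 15.5 CPM, the lines overlapped (edgeR adjusted p = 0.65). S060720, of 732 bases, had 11.2, 11.2 and 13.3 CPM in WT flesh and 4.83, 3.94 and 5.39 in MT flesh. It was 2.51-fold lower without overlap (log2 fold change -1.33 ± 0.27 SE, edgeR adjusted p = 0.0085, and 0.053 without MT flesh replicate 2).

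The rises in MT flesh named by the rule were S039350 and S042280. S042280, of 2133 bases, is a skin gene, with 20.05 to 30.6 CPM there and overlapping lines. In flesh it had 2 counts in each WT library and 9, 9 and 4 in the MT libraries, or 0.101, 0.0867 and 0.0937 against 0.467, 0.461 and 0.237 CPM. The MT libraries were all higher, by 4.14-fold (log2 fold change 1.98 ± 0.41 SE, edgeR adjusted p = 0.015), and the call was lost without WT flesh replicate 2 or 3 or MT flesh replicate 1 or 2 (edgeR adjusted p = 0.070, 0.057, 0.094 and 0.092). S042280 met the filter and the level in the naming rule through its skin counts. When only the flesh groups were fitted it did not pass the filter, so it was not tested there. S039350, of 1071 bases, rested on 1 library. Its counts were 10, 50 and 64 in WT flesh and 74, 106 and 573 in MT flesh. The log2 fold change was 2.91 ± 0.74 SE (edgeR adjusted p = 0.036) with MT flesh replicate 3 and 1.29 without it (edgeR adjusted p = 0.34). Leaving out any WT flesh or WT skin library, or MT skin replicate 1 or 2, also lost the call, with edgeR adjusted p between 0.050 and 0.13, and a fit of the flesh groups alone gave 0.088.

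A genotype difference of the same direction in both tissues was found for S054560 and S025880 alone among the 926 (where 1.34% of all genes tested had one), and both rose. S054560, of 438 bases, had 6.17, 5.16 and 4.68 CPM in WT flesh and 14.0, 14.0 and 14.3 in MT flesh, a rise of 2.64-fold (log2 fold change 1.4 ± 0.21 SE, edgeR adjusted p = 0.00067). In skin it had 7.44, 5.002 and 5.21 CPM in WT and 11.9, 12.9 and 8.60 in MT, a rise of 1.89-fold (log2 fold change 0.93 ± 0.22 SE, edgeR adjusted p = 0.020). No library of one line overlapped the other in either tissue. The skin call was lost without WT skin replicate 2 or 3 or MT skin replicate 1 or 2 (edgeR adjusted p = 0.084, 0.070, 0.058 and 0.069), and when only the skin groups were fitted (0.073).

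S025880, of 3182 bases, was abundant and changed little. It had 62.1, 60.2 and 56.7 CPM in WT skin and 88.9, 80.1 and 84.7 in MT skin, and 62.9, 77.5 and 70.1 in WT flesh against 95.1, 85.1 and 89.9 in MT flesh. The lines did not overlap in either tissue, and the rise was 1.42-fold in skin (log2 fold change 0.50 ± 0.09 SE, edgeR adjusted p = 0.0027) and 1.28-fold in flesh (0.36 ± 0.08, edgeR adjusted p = 0.021). The flesh call was lost with library totals (log2 fold change 0.26, edgeR adjusted p = 0.11), without WT flesh replicate 1 or 3 (edgeR adjusted p = 0.10 and 0.084) and without MT flesh replicate 1 or 3 (0.11 and 0.071).

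Opposite directions in the tissues, with both tests passed, were found for S105080 and S027180 alone (where 0.407% of all genes tested had them). S105080, of 1164 bases, had 86.6, 80.2 and 80.4 CPM in WT flesh and 50.2, 52.5 and 52.9 in MT flesh, but 23.7, 22.7 and 25.3 in WT skin and 38.2, 38.1 and 38.2 in MT skin. No groups overlapped. It fell 1.59-fold in MT flesh (log2 fold change -0.67 ± 0.07 SE, edgeR adjusted p = 3.2e-05) and rose 1.60-fold in MT skin (0.68 ± 0.08, edgeR adjusted p = 0.00011), so that skin lay 3.45-fold below flesh in WT and 1.36-fold below in MT. S027180, of 1058 bases, did the opposite. It had 4.55, 3.68 and 3.47 CPM in WT flesh and 6.59, 6.04 and 8.76 in MT flesh, and 25.8, 29.6 and 27.3 in WT skin and 17.6, 15.1 and 20.2 in MT skin. It rose 1.83-fold in MT flesh (edgeR log2 fold change 0.87 ± 0.18 SE, adjusted p = 0.010) and fell 1.57-fold in MT skin (-0.65 ± 0.17, adjusted p = 0.037). Whether the calls of S105080 and S027180 withstand leaving out a library was not looked at.

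The interaction, the MT against WT log2 fold change in skin less its counterpart in flesh, passed for 26 members (2.81%, where 4.55% of all genes tested did), 9 above and 17 below 0 (1.46% and 3.08% of all genes tested), with a median of -0.13. Of the 26, 11 passed the genotype test in skin alone and 9 in flesh alone, and S105080 and S027180 passed in both. S050160 had the largest negative value under the naming rule (-3.04 ± 0.63 SE, edgeR adjusted p = 0.011). S058730, of 450 bases, followed at -2.97 ± 0.73 (edgeR adjusted p = 0.032). It is a skin gene, with 38.0, 42.4 and 38.9 CPM in WT skin and 27.6, 27.5 and 21.4 in MT skin, and in flesh it had 0, 0 and 3 counts in WT and 5, 7 and 3 in MT. The interaction of S058730 thus turns on 3 counts in WT flesh, from which its WT skin level was 860-fold higher (exact interval 293 to 4174, counting error only). Its call was lost without WT flesh replicate 1 or 2, MT flesh replicate 1 or 2, or WT skin replicate 2 or 3, with edgeR adjusted p between 0.053 and 0.12.

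The largest positive interactions were those of S090380 (2.13 ± 0.41 SE, edgeR adjusted p = 0.0068) and S027540 (1.64 ± 0.39, edgeR adjusted p = 0.026). S027540, of 1959 bases, had 8.30, 8.90 and 7.18 CPM in WT skin and 14.6, 16.0 and 13.1 in MT skin. In flesh it had 1.31, 1.17 and 1.92 CPM in WT and 1.14, 0.768 and 0.592 in MT. The lines did not overlap in either tissue, higher in MT skin and lower in MT flesh, though neither comparison passed singly (edgeR adjusted p = 0.064 and 0.18). Its interaction call was lost on leaving out WT flesh replicate 3, MT flesh replicate 2 or 3, WT skin replicate 1 or 3, or MT skin replicate 1 or 2, with edgeR adjusted p between 0.051 and 0.080.

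Both genes of some neighbouring pairs passed for genotype. Among the 279 pairs, 2 did so in flesh and 0 in skin. Singly, 2.05% of tested members and 4.96% of all genes tested passed in flesh, and the matching count over pairs of numbered genes was not made. The 2 pairs are named here after their values were seen. S045310 and S045320, of 213 and 312 bases, had no count in the 3 WT flesh libraries, and 9, 14 and 12 and 9, 0 and 12 counts in MT flesh. The first was at least 13.5-fold and the second at least 8.40-fold higher in MT flesh (edgeR adjusted p = 0.0072 and 0.045), and MT flesh replicate 2 was at 0 for the second. In skin both were present in WT and MT, at 2.78 to 14.6 CPM and 1.39 to 4.71 CPM, and the lines overlapped. S085940 and S085950, of 558 and 1449 bases, were the other pair. S085950 had no count in WT flesh and 6, 4 and 4 in MT flesh, at least 5.37-fold higher (edgeR adjusted p = 0.020). S085940 had 10, 10 and 17 counts in WT flesh and 76, 110 and 11 in MT flesh, where MT flesh replicate 3 lay within the WT range by CPM (edgeR adjusted p = 0.043). The filter on low counts used the skin libraries too. S045320 and S085950 had only 21 and 14 counts over the MT flesh libraries, and they met the filter through skin.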

How the data were processed

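The raw RNA-seq counts per gene were used as the authors deposited them, beside a gene length column. Per the submitters' processing notes, the tools were DESeq2 1.40.2, featureCounts and HISAT2 2.0.5, without their roles. Strand setting, build and the handling of multiply matching reads: not given in the sources used here. Groups and replicate numbers came from the sample titles.

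The whole table was tested with edgeR 4.0.16 in R 4.3.3 (filterByExpr with a minimum count of 10, TMM, all 4 groups in one fit, 80351 genes). Contrasts used the quasi-likelihood test of edgeR, with p-values adjusted after Benjamini-Hochberg over these genes and a threshold of 0.05. DESeq2 1.42.0, library totals, RLE size factors, no filter, a replicate block, fits of only the groups compared and leaving out each library were alternatives. The procedure was run on simulated data with a single fixed spread and changes planted only in MT skin above a minimum level. Members had lower levels and wider spread than numbered genes, so that run does not describe them. SE is the absolute log2 fold change over the square root of F. Folds are ratios of group mean CPM, while log2 fold changes come from the fit, so they can differ. Log2 CPM used a prior count of 2, and folds against groups without counts used 3 counts as the floor.

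The members, lists and rules were chosen with earlier results of these data known. Named genes had adjusted p under 0.05, mean log2 CPM of at least 1 and, outside the interaction, non-overlapping libraries: the 2 highest and 2 lowest log2 fold changes per contrast, the 3 highest levels per kb, and members called in both tissues in one direction. Other named genes were chosen after their values were seen. In a RefSeq gene table of assembly IBA_r1.0, 0 of 175826 entries carried these identifiers. A summary by sequence block was planned, but the unnumbered identifiers hold none, so stretches of running numbers replaced it after the data were seen.

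Replicates differed beyond counting noise (chi-square per degree of freedom 5.82 to 7.81), so no library was counted as a duplicate. Of the members, 6 formed 3 groups with identical counts in all libraries, at 10 or 11 counts.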

Additional observations from a re-analysis of the deposited data

Results flagged for a closer look

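The genotype difference differed between skin and flesh for 26 members, by a test of the difference itself (edgeR's quasi-likelihood test of the interaction, Benjamini-Hochberg adjusted). The values that follow are the log2 fold change of MT over WT in skin minus that in flesh, for the members named in the text. The value was -3.04 for S050160, -2.75 for S072040, -2.21 for S042280 and -2.97 for S058730. It was 2.13 for S090380 and 1.64 for S027540. For S018930, which rose in MT flesh and whose lines overlapped in skin, it was -0.71. The neighbours S045310 and S045320 had -7.08 and -6.33, fitted values that depend on how the fit treats a group without counts, because WT flesh had no count. The members with opposite directions had -1.52 (S027180) and 1.35 (S105080).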

How the results depend on the processing

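With no filter the members called numbered 94 in the skin genotype comparison, 70 in flesh and 65 for the interaction, over 1920 members. These are 4.90, 3.65 and 3.39% of members, beside 6.24, 4.81 and 4.43% of all genes with at least 10 counts (a comparison chosen after seeing the data) and 4.86, 3.74 and 3.45% of all genes with any count. With DESeq2 the calls numbered 63, 36 and 40 (6.80, 3.89 and 4.32%, beside 10.4, 7.505 and 7.14% of all genes tested). Leaving out 1 library also changed the filter, which then kept 1042 to 1067 members. The calls were 26 to 37 in skin and 12 (without WT flesh replicate 1) to 19 in flesh. Of all genes tested, 4.20 to 6.03% and 3.33 to 4.68% were then called. The interaction had 13 to 22 calls, where 3.17 to 3.92% of all genes tested were called. It had 15 without WT flesh replicate 3, 16 without MT flesh replicate 1, 13 without MT flesh replicate 3 and 17 without WT skin replicate 1. For tissue, leaving out 1 library gave 321 to 418 in WT and 356 to 408 in MT. Of all genes tested, 43.6 to 49.6% and 43.5 to 48.9% were called there. The median tissue log2 fold change ran from 0.10 to 0.31 in WT on leaving out a library, and was -0.12 in WT and -0.21 in MT with library totals. The interaction median ran from -0.23 to -0.047.

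The expressed share was 40.4%, 13.7% and 20.1% at 1 count, at 50 counts and after scaling to the shallowest library. Without the 10 most abundant members the shares of counts were 0.368, 0.339, 0.395 and 0.364% in flesh of WT and MT and in skin of WT and MT. Leaving out 1 library moved the full shares over 0.472 to 0.486, 0.451 to 0.458, 0.478 to 0.515 and 0.453 to 0.464% in that order. Median levels were 0.289, 0.281 and 0.218 CPM per kb in WT flesh, MT flesh and MT skin with library totals, and 0.801, 0.775, 1.08 and 0.912 in the 4 groups over members with at least 50 counts. The causes were not tested. Of 426 alternatives over 24 results for members named by the rule, 374 kept direction and side of the threshold, 52 lost the call and 0 reversed. Outside the interaction these members had non-overlapping libraries, so leaving out a library could hardly reverse a direction. Libraries of groups not compared were also left out, which bears little on the contrast. Single-gene alternatives were not tabulated for S027180, S105080, S018930, S044010, S090560 or the neighbouring pairs.

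Replicate numbers did not pair the libraries: same-numbered libraries had correlations of deviations from -0.017 to 0.015 over 18 pairs, and 1 of 12 correlated best with its own number. With the replicate block the calls numbered 28 and 16 for genotype in skin and flesh, 349 and 362 for tissue in WT and MT, and 18 for the interaction, where 5.38, 4.26, 48.6, 48.8 and 3.67% of all genes tested were called. The block lost the calls of S043940 in skin (edgeR adjusted p = 0.051) and of the S058730 and S027540 interactions (0.057 and 0.053). The 994 members below the filter were not tested, and skin libraries had the lower depth.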
